A study of Mus musculus with 12 samples.

Results

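Ion channel and gap junction genes were examined in RNA from CD31+ lung cells of WT and TET2 KO mice on chow or a high-fat diet (HFD). They were taken by name and comprise the protein-coding genes for potassium, calcium, sodium and TRP channels, chloride channels and anoctamins, Piezo, pacemaker and intracellular calcium release channels and connexins, with Gja4 left out. The rule took 62 of the 9338 genes listed in the deposited tables, 6886 of which are protein-coding. Every mouse was male, on a C57Bl/6J background, homozygous for the floxed Tet2 allele and given tamoxifen (40 mg/kg on 3 days) when 6 to 8 weeks old. The WT mice lacked Cre, and the TET2 KO mice carried Cdh5-CreERT2, a tamoxifen-inducible recombinase driven by the promoter of the VE-cadherin gene and so directed to endothelial cells. No group carried the recombinase without the floxed allele. From 1 week after tamoxifen the mice ate either chow (13% of energy as fat) or HFD (60%) for 20 weeks, and the lungs were taken at 30 weeks of age. There were 3 libraries in each of 4 groups, each from an individual mouse: WT chow, TET2 KO chow, WT HFD and TET2 KO HFD.

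The electrical state of a lung endothelial cell sets how much calcium enters it. Potassium channels hold the membrane negative and so keep up the driving force on calcium, TRP and Piezo channels let calcium and sodium in when the wall is stretched, sheared or exposed to a ligand, and calcium release channels empty the internal store. Calcium then drives nitric oxide production, calcium-activated potassium channels and the opening of cell junctions. Connexins form gap junctions, which join neighbouring endothelial cells to each other and to the muscle beneath them and let the change in voltage travel along the vessel.

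The tables limit what can be said of these genes. Each of the 4 deposited tables lists a gene only where its unadjusted p-value in the authors' DESeq2 test of that comparison was under 0.05, so a member was measured in a comparison only if it had already passed there. The rule takes 208 genes of the mouse annotation (GENCODE M21), and the 62 listed were 29.8% of them, beside 31.2% of all protein-coding genes. The members were 8 for TET2 KO against WT on chow, 49 for HFD against chow in WT, 22 for TET2 KO against WT on HFD and 15 for HFD against chow in TET2 KO. Of the 62, 36 were listed in 1 table, 21 in 2 tables, 4 in 3 tables and Cacng7 alone in all 4. Counts and medians over listed members are therefore descriptions. Those over all members of a comparison are given beside the same value over all listed genes, and counts by role are to be read against the same shares. Counts from runs with a library left out, or with the replicate number as a block, lack that value and describe the members alone. The 4 comparisons also share libraries, since every group enters a pair of them, so a member's values in different comparisons are not independent.

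In each comparison, edgeR's quasi-likelihood test was applied to the read counts, and a gene was called at an unadjusted p under 0.05. A member whose values are given below was called unless it is said not to have been. Adjusted p-values follow Benjamini and Hochberg, with as many tests as the authors' own adjustment had, fold changes are on the log2 scale with their standard error, and a normalized count is the read count divided by the library's size factor. The libraries held 36.7 to 56.8 M reads on genes. Averaged over the libraries in which they were measured, the members ranged from 0.0101 (Kcnd2) to 39.8 FPKM (Kcna3), a level per gene length, with a median of 0.597 FPKM beside 3.75 FPKM over all listed protein-coding genes. Only 25 members were above 1 FPKM and 12 were below 0.1 FPKM. Since the libraries differ between members, these averages give no exact order. In WT HFD, Scn7a was at 50.7 ± 14.7 FPKM and Kcna3, a potassium channel of T cells and macrophages, at 30.1 ± 4.11, and in WT chow they were at 13.6 ± 1.0 and 49.5 ± 16.1 FPKM (SD, n = 3 each). Tet2 was listed only for HFD against chow in WT, where it had 4503 ± 230 normalized counts in WT HFD and 3533 ± 179 in WT chow (SD, n = 3 each), so the knockout was not checked by its level here. The library WT HFD 3 stood apart in the macrophage complement gene C1qa, at 7191 normalized counts beside 901 and 202 in WT HFD 1 and WT HFD 2. Without it, 41 members were called for HFD against chow in WT (44 with it), 18 for TET2 KO against WT on HFD (16 with it) and 4 for the interaction (4 with it). WT chow 3 stood apart in endothelial markers, with Cdh5 at 20798 normalized counts beside 9834 and 8346 in WT chow 1 and WT chow 2. So did TET2 KO HFD 1, with Cdh5 at 27999 beside 14396 and 14776 in TET2 KO HFD 2 and TET2 KO HFD 3. TET2 KO chow 1 was apart in Ramp2 (12399 beside 4315 and 4316) but not in Ednrb (3329 beside 3256 and 3207). Without WT chow 3, 36 members were called for HFD against chow in WT and 4 for the interaction. For the genotype on chow 5 were called (5 with it), but not the same 5. Cacng7 and Kcnd3 were then not called, and Trpv6 and Gja5 were.

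The promoters of 5 members on which the results turn are printed here, because TET2 acts on methylated cytosines, which in mammals lie mostly in CG pairs. These are Scn7a, the member with the lowest p for HFD against chow in WT, and the 4 members called for the interaction described last (Cacng7, Ano7, Kcnd3 and Gja5). Each is a window of 300 bases around the gene's start as RefSeq gives it, most of it upstream, on GRCm38.p6, read 5′ to 3′ on the gene's own strand, and the capitals mark every CG. The windows are chr2:66784861-66785160 (minus strand, 3 CG) for Scn7a, chr7:3332575-3332874 (plus strand, 15 CG) for Cacng7, chr1:93373646-93373945 (plus strand, 4 CG) for Ano7, chr3:105451640-105451939 (plus strand, 25 CG) for Kcnd3 and chr3:97032152-97032451 (plus strand, 7 CG) for Gja5. The RefSeq start is not always the start of the gene in the deposited tables. It lay 127709 bases downstream of that start for Gja5, so the Gja5 window is inside the gene as tabulated. It lay 440 bases upstream for Kcnd3, 130 for Cacng7 and 34 for Ano7, so the windows of Kcnd3 and Cacng7 do not hold the tabulated start, and 4 bases downstream for Scn7a.
Scn7a: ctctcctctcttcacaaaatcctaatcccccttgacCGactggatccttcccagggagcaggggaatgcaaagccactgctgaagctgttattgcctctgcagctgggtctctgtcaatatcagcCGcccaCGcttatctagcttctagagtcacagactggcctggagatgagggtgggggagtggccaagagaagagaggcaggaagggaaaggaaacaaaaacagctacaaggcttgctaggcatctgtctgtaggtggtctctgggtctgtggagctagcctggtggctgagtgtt
Cacng7: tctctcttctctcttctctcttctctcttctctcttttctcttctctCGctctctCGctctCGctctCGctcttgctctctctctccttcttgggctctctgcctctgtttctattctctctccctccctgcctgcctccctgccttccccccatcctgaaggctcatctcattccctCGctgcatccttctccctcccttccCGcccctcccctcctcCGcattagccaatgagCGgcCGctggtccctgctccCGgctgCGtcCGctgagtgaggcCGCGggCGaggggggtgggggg
Ano7: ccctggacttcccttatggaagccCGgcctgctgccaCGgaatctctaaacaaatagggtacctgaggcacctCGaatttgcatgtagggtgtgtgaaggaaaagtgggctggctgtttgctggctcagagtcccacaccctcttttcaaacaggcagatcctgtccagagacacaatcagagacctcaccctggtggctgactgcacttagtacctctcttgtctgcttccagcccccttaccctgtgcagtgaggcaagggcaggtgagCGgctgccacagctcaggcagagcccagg
Kcnd3: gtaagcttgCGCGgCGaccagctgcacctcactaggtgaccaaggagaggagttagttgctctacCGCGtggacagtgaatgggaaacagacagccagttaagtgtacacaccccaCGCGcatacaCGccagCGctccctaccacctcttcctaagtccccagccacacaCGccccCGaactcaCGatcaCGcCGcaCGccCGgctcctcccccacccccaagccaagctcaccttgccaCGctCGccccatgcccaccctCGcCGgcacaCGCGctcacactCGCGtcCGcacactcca
Gja5: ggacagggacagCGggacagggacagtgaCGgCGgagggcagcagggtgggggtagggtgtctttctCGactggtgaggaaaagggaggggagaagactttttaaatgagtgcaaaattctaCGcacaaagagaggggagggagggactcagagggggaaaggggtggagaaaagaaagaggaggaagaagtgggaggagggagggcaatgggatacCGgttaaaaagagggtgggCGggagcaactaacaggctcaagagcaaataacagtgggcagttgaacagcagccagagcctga

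At least as many CG were present in 76.2% of the 27025 RefSeq promoters for Scn7a, in 68.1% for Ano7, in 52.3% for Gja5, in 35.2% for Cacng7 and in 18.4% for Kcnd3. A promoter was found for 43 of the 62 members, with a median of 11 CG beside 7 over all promoters. For HFD against chow in WT, the 13 members called higher that had a promoter held a median of 9 CG (3 to 31) and the 19 called lower a median of 13 (2 to 37), while the median was 18 over all protein-coding genes called in either direction. Methylation was not measured in these samples, and these counts of letters describe the windows alone.

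HFD against chow in WT mice asked how the diet changes these genes in animals with intact Tet2, and it held most of the members. Of those listed, 4 of 6 connexins, 3 of 5 sodium channel subunits, Trpv4, Trpm4 and Piezo2 were called higher on HFD. Trpm5 and 3 of 4 two-pore domain potassium channels were called lower. Of 8 voltage-gated potassium channels, 2 were called higher and 6 lower. The lower ones included all 3 of the Kcnd family, of which Kcnd2 and Kcnd3 had few reads. Of the 49 listed members, 44 were called, beside 91.6% of all 7330 listed genes. By direction, 21 were called higher (42.4% of all listed genes were) and 23 lower (49.2%). In 46 of the 49 the 3 WT HFD libraries lay entirely above or below the 3 WT chow libraries, which held for 86.5% of all listed genes. At an adjusted p under 0.05 there were 13 members (18.7% of all listed genes), 8 of them higher (8.39%) and 5 lower (10.3%). The median log2 fold change was 0.32 over the members and -0.32 over all listed genes, and the median of its absolute size was 1.28 and 0.95.

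**Figure D1:**
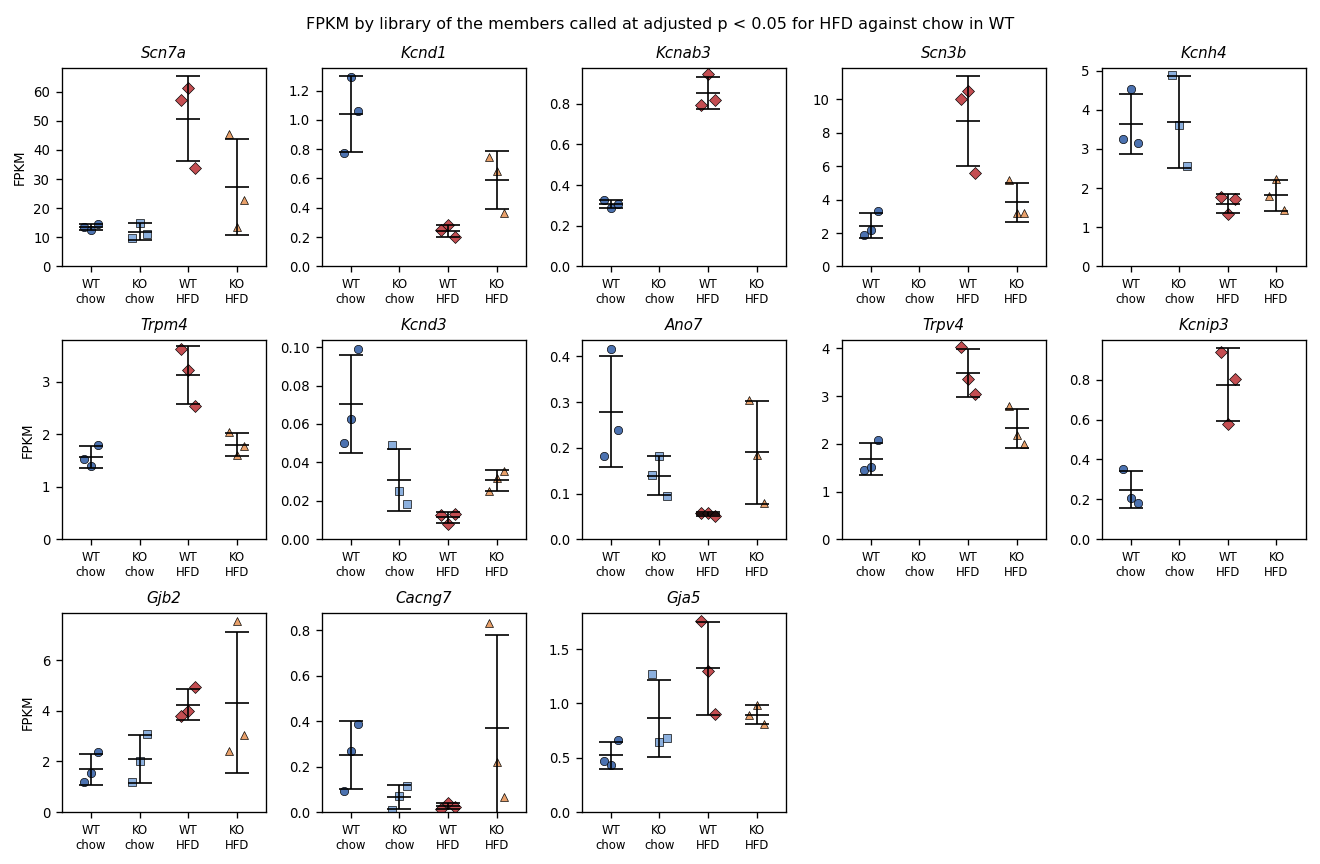
FPKM (reads scaled by gene length and library total, y axis, from 0) of the 13 members with an adjusted p under 0.05 for HFD against chow in WT, by group on the x axis (KO, TET2 KO). Each point is 1 library, lines with caps are the mean ± SD of 3 libraries (cut at 0 where they reach below it), and a group without points is one for which the gene was not listed. In every panel the WT HFD points lie clear of the WT chow points.

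All 6 listed connexins were called, 4 higher and 2 lower. Gja5, the connexin of arterial endothelium, had 424, 313 and 218 normalized counts in the WT HFD libraries and 113, 103 and 160.1 in the WT chow libraries (log2 fold change 1.35 ± 0.30, adjusted p = 0.0493). Gjb2, a connexin best known from epithelia and the inner ear, had 382, 403 and 499 normalized counts in the WT HFD libraries and 117, 155 and 238 in the WT chow libraries (log2 fold change 1.33 ± 0.28, adjusted p = 0.0449). Neither gene's groups overlapped, and both passed the adjusted threshold. Gjc1, a connexin of the heart's conduction system and of vascular muscle, had 821, 465 and 388 normalized counts in the WT HFD libraries and 139.9, 187 and 257 in the WT chow libraries (log2 fold change 1.52 ± 0.35, adjusted p = 0.0514). Gja1, the most widely expressed connexin, had 521, 461 and 524 normalized counts in the WT HFD libraries and 248, 254 and 383 in the WT chow libraries (log2 fold change 0.77 ± 0.21, adjusted p = 0.0667). The higher connexins thus covered genes known from endothelium, muscle and epithelium, at mean levels of 1.32 ± 0.429 FPKM for Gja5, 4.24 ± 0.614 for Gjb2, 2.66 ± 1.1 for Gjc1 and 1.17 ± 0.0805 for Gja1 in WT HFD (SD, n = 3 each). Both lower connexins had few reads. Gja10 had 2.21, 3.17 and 4.28 normalized counts in the WT HFD libraries and 4.76, 15.9 and 14 in the WT chow libraries (log2 fold change -1.82 ± 0.62, adjusted p = 0.107), and it was not called without WT HFD 1, WT HFD 2, WT chow 2 or WT chow 3 (log2 fold change -1.83 to -1.52). Gjd4 had 12 reads in all in WT chow and 0 in WT HFD, which makes it at least 4.52-fold lower when 3 reads over the group are taken as the floor.

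Of the 6 listed TRP, Piezo and pacemaker channel genes, 4 were called higher on HFD and 1 lower. Trpv4, the calcium entry channel of the lung endothelium that opens with stretch and raises barrier permeability, had 689, 574 and 522 normalized counts in the WT HFD libraries and 247, 258 and 355 in the WT chow libraries (log2 fold change 1.05 ± 0.20, adjusted p = 0.0388). Trpm4, a channel opened by internal calcium that carries sodium and potassium, had 1644, 1460.4 and 1156 normalized counts in the WT HFD libraries and 693, 626 and 819 in the WT chow libraries (log2 fold change 1.00 ± 0.17, adjusted p = 0.0368). Every WT HFD library exceeded every WT chow library for both. Piezo2, which opens when the membrane is stretched, had 2823, 1894 and 1501 normalized counts in the WT HFD libraries and 895, 985 and 1292 in the WT chow libraries (log2 fold change 0.97 ± 0.26, adjusted p = 0.0649). Its WT HFD libraries differed among themselves by more than its WT chow libraries did. Trpm5, the taste cell relative of Trpm4, was called lower with 34.7, 37 and 43.9 in WT HFD and 60.9, 56.6 and 78.5 in WT chow (log2 fold change -0.76 ± 0.26, adjusted p = 0.107), but not without WT HFD 1, WT HFD 2 or WT chow 3 (log2 fold change -0.74 to -0.61). Hcn4, the pacemaker channel of the sinus node, had 14.8, 18 and 15 normalized counts in the WT HFD libraries and 3.81, 7.93 and 7.52 in the WT chow libraries (log2 fold change 1.31 ± 0.42, adjusted p = 0.098).

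Of the sodium channel subunits, 3 of the 5 listed were called, all higher, and Scn7a had the lowest p of all members. Scn7a, at chr2:66673425-66784914, codes for an atypical member of the voltage-gated sodium channel family that senses the sodium concentration rather than voltage. It had 17579.5, 18774 and 10446 normalized counts in the WT HFD libraries and 4150.5, 3839 and 4487 in the WT chow libraries (log2 fold change 1.91 ± 0.23, adjusted p = 0.0357), or 50.7 ± 14.7 against 13.6 ± 1.0 FPKM. Scn3b, a beta subunit that modulates the pore, had 2296, 2398 and 1279 normalized counts in the WT HFD libraries and 426, 493 and 756 in the WT chow libraries (log2 fold change 1.84 ± 0.31, adjusted p = 0.0368). In both genes WT HFD 3 was the lowest of its group and still above every WT chow library. Scn3a, a pore subunit of developing neurons, had 68.6, 56 and 34.3 normalized counts in the WT HFD libraries and 27.6, 32.8 and 21.5 in the WT chow libraries (log2 fold change 0.96 ± 0.35, adjusted p = 0.126), and it was not called without WT HFD 1, WT HFD 2, WT chow 1 or WT chow 3 (log2 fold change 0.72 to 0.97). Scn2b, another beta subunit, was not called, with 15.5, 11.6 and 47.1 in WT HFD and 7.61, 12.5 and 7.52 in WT chow (log2 fold change 1.41 ± 0.62, adjusted p = 0.198), and WT HFD 3 stood far above the rest of its group. It was called without WT HFD 1 or WT HFD 2.

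Voltage-gated potassium channels split, with 2 of the 8 listed called higher and 6 lower. The Kcnd genes code for the pores of fast, transient potassium currents. Kcnd1 had 54.6, 62.4 and 43.9 normalized counts in the WT HFD libraries and 170.3, 284 and 234 in the WT chow libraries (log2 fold change -2.09 ± 0.27, adjusted p = 0.0357). Kcnd3, at chr3:105452330-105674002, had 5.17, 3.17 and 5.35 normalized counts in the WT HFD libraries and 20, 24.9 and 39.8 in the WT chow libraries (log2 fold change -2.58 ± 0.45, adjusted p = 0.0368). Both were lower in every WT HFD library than in any WT chow library, Kcnd3 at a level of 0.0705 ± 0.0255 FPKM in WT chow. Kcnd2 was called lower too, but on only 12 reads in WT chow and 1 read in WT HFD, a ratio of 13.5 with an exact 95% counting interval of 2.0 to 579. It was not called without WT HFD 2, WT HFD 3 or WT chow 1 (log2 fold change -2.96 to -2.75). Kcnh4, of the ether-a-go-go family, had 294, 220 and 285 normalized counts in the WT HFD libraries and 536, 744 and 521 in the WT chow libraries (log2 fold change -1.17 ± 0.20, adjusted p = 0.0368), and its relative Kcnh7 had 61.3, 82.5 and 106 in WT HFD and 128, 173 and 187 in WT chow (log2 fold change -0.97 ± 0.28, adjusted p = 0.0755). Kcnh1, the founding gene of that family, moved the other way with 429.6, 368 and 156 normalized counts in the WT HFD libraries and 92.3, 75.9 and 139.7 in the WT chow libraries (log2 fold change 1.63 ± 0.42, adjusted p = 0.0615). Kcna3 was lower, with 2544, 2021 and 2635 normalized counts in the WT HFD libraries and 3262, 5381 and 3136 in the WT chow libraries (log2 fold change -0.71 ± 0.23, adjusted p = 0.0999), though not called without WT HFD 2 (log2 fold change -0.60). Kcnq1, the pore of a slow potassium current in heart and epithelia, was higher, with 758, 609 and 481 normalized counts in the WT HFD libraries and 173, 181 and 407 in the WT chow libraries (log2 fold change 1.28 ± 0.37, adjusted p = 0.0755).

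The proteins that bind these pores also went both ways, 4 higher and 2 lower of 7 listed. Kcnab3, a cytoplasmic beta subunit, had 95.2, 113 and 98.5 normalized counts in the WT HFD libraries and 39, 34 and 36.5 in the WT chow libraries (log2 fold change 1.48 ± 0.22, adjusted p = 0.0357), the lowest adjusted p among the partner subunits. Kcnip3, a calcium-binding partner of the Kcnd channels, had 139.5, 85.7 and 119.9 normalized counts in the WT HFD libraries and 52.3, 30.6 and 26.9 in the WT chow libraries (log2 fold change 1.65 ± 0.34, adjusted p = 0.0444). Kcnip2, its close relative and a partner of the same pores, was lower with 31.7, 27.5 and 48.2 normalized counts in the WT HFD libraries and 60.9, 56.6 and 64.5 in the WT chow libraries (log2 fold change -0.76 ± 0.29, adjusted p = 0.141), and it was not called without WT HFD 1, WT HFD 2, WT chow 1, WT chow 2 or WT chow 3 (log2 fold change -0.81 to -0.61). Kcnip2 and Kcnip3 thus had opposite signs while the Kcnd pores were lower. The beta subunits of the large-conductance calcium-activated channel also split. Kcnmb2 had 62, 46.5 and 111 normalized counts in the WT HFD libraries and 18.1, 34 and 29 in the WT chow libraries (log2 fold change 1.44 ± 0.42, adjusted p = 0.0783) and Kcnmb3 had 3.69, 7.4 and 9.64 in WT HFD and 22.8, 26 and 25.8 in WT chow (log2 fold change -1.87 ± 0.43, adjusted p = 0.0514). Kcnab2, at 20.7 ± 1.26 FPKM in WT HFD and 16.7 ± 1.31 in WT chow, was called higher by a small amount (log2 fold change 0.32 ± 0.11, adjusted p = 0.113), and not without WT HFD 3, WT chow 2 or WT chow 3 (log2 fold change 0.27 to 0.30). Kcne2 was not called (log2 fold change 1.25 ± 0.66, adjusted p = 0.329), and its groups overlapped. It was called without WT chow 3 (log2 fold change 2.29).

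**Figure D2:**
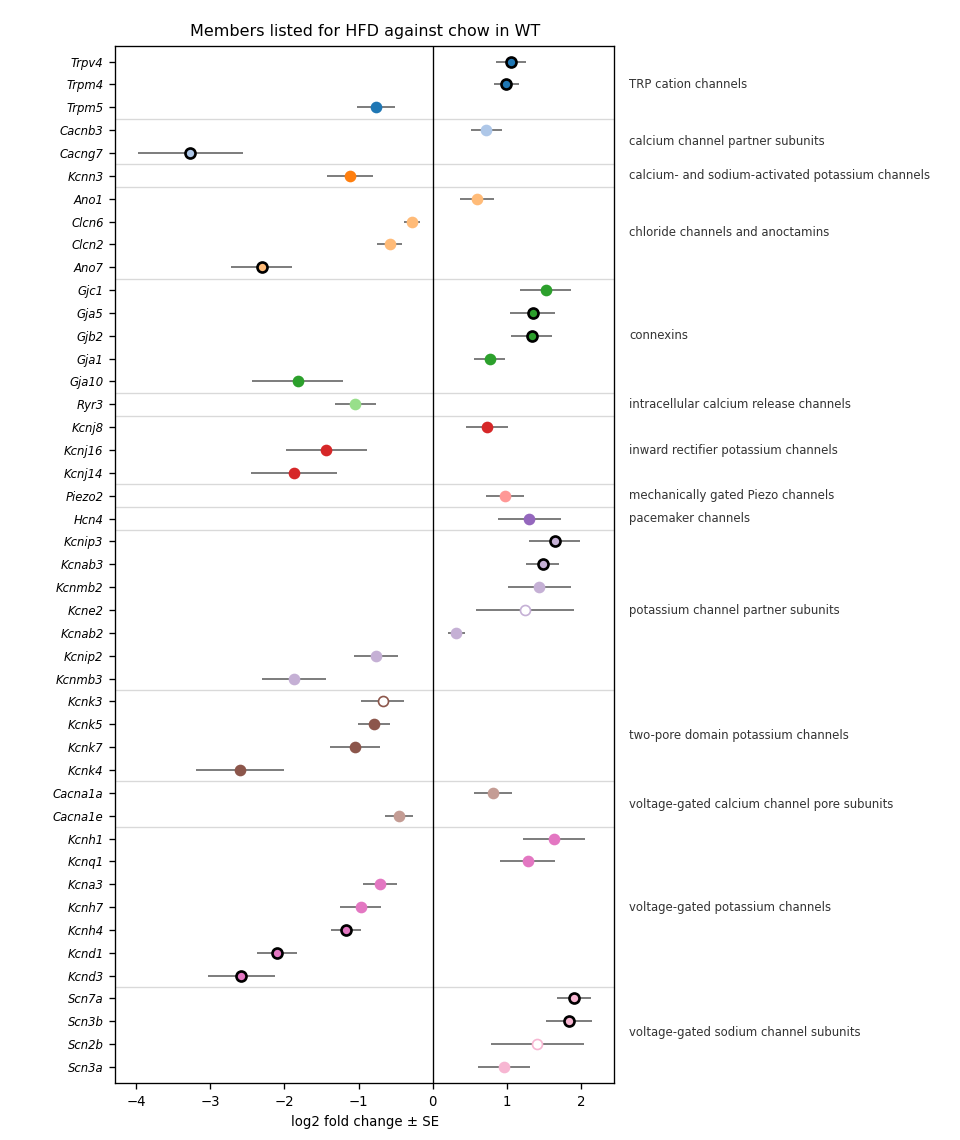
log2 fold change ± SE (x axis) of the members listed for HFD against chow in WT, grouped by role. Filled points were called at an unadjusted p under 0.05, open points were not, and black outlines mark an adjusted p under 0.05. Two-pore domain potassium channels all lie left of 0 and the sodium channel subunits shown all right of it. Gjd4 and Kcnd2 are left out because WT HFD held 0 and 1 of their reads, and a few members that were not called are not plotted.

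Two-pore domain genes code for background potassium channels, which set the resting potential. The 4 listed genes all lay below 0 and 3 of them were called. Kcnk5, an alkaline-activated channel, had 697, 1140 and 884 normalized counts in the WT HFD libraries and 1490.1, 1873 and 1334 in the WT chow libraries (log2 fold change -0.79 ± 0.21, adjusted p = 0.0679). Kcnk7, a member without known current, had 73.8, 87.8 and 161 normalized counts in the WT HFD libraries and 177, 269 and 218 in the WT chow libraries (log2 fold change -1.05 ± 0.34, adjusted p = 0.096), and it was not called without WT HFD 1, WT HFD 2 or WT chow 2 (log2 fold change -0.93 to -0.83). Kcnk4, a stretch-sensitive channel of neurons, fell from few reads, with 2.21, 3.17 and 8.56 in WT HFD and 16.2, 36.2 and 31.2 in WT chow (log2 fold change -2.60 ± 0.59, adjusted p = 0.0516). Kcnk3, whose loss is linked to pulmonary arterial hypertension, was not called, with 48.7, 33.8 and 55.7 in WT HFD and 58, 80.4 and 82.8 in WT chow (log2 fold change -0.67 ± 0.29, adjusted p = 0.182). It was called without WT HFD 3 or WT chow 1. Kcnn3, the small-conductance calcium-activated channel through which endothelium relaxes vessels, had 2721, 1927 and 3643 normalized counts in the WT HFD libraries and 4011, 7952 and 5948 in the WT chow libraries (log2 fold change -1.11 ± 0.31, adjusted p = 0.0709). Its WT HFD libraries were all below its WT chow libraries, and the WT chow libraries ranged widely (4011 to 7952). Among inward rectifiers, Kcnj8, the pore of the vascular channel that closes with ATP, was higher with 149.8, 103 and 123 normalized counts in the WT HFD libraries and 102, 62.3 and 62.3 in the WT chow libraries (log2 fold change 0.73 ± 0.29, adjusted p = 0.149), and not called without WT HFD 1, WT HFD 3, WT chow 2 or WT chow 3 (log2 fold change 0.58 to 0.74). The other listed inward rectifiers, Kcnj14 (log2 fold change -1.87 ± 0.58, adjusted p = 0.0888) and Kcnj16 (log2 fold change -1.43 ± 0.54, adjusted p = 0.139), were lower at under 40 normalized counts in every library. Kcnj14 was not called without WT HFD 1 or WT chow 2 (log2 fold change -1.70 to -1.54), and Kcnj16 not without WT chow 1 or WT chow 3 (log2 fold change -1.41 to -1.32).

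Calcium and chloride channels gave smaller or less certain changes, apart from a pair of genes with few reads. Cacng7, at chr7:3332955-3368221, belongs to the calcium channel gamma subunits by sequence and is known as a partner of glutamate receptors. It had 1.48, 4.23 and 2.14 normalized counts in the WT HFD libraries and 9.52, 27.2 and 39.8 in the WT chow libraries (log2 fold change -3.27 ± 0.71, adjusted p = 0.0471). Ano7, at chr1:93373930-93404303, an anoctamin of the prostate, had 9.6, 9.52 and 8.56 normalized counts in the WT HFD libraries and 30.4, 69.1 and 39.8 in the WT chow libraries (log2 fold change -2.31 ± 0.41, adjusted p = 0.037). Every WT HFD library was under 10 normalized counts in both genes. Cacnb3, the cytoplasmic beta subunit, had 245, 247 and 202 normalized counts in the WT HFD libraries and 116, 138 and 168 in the WT chow libraries (log2 fold change 0.72 ± 0.21, adjusted p = 0.0771). The pore genes Cacna1a (log2 fold change 0.81 ± 0.25, adjusted p = 0.0912) and Cacna1e (log2 fold change -0.45 ± 0.19, adjusted p = 0.176) went opposite ways, the former not called without WT chow 2 (log2 fold change 0.70) and the latter not without WT HFD 1, WT HFD 3, WT chow 1 or WT chow 3 (log2 fold change -0.48 to -0.30). Among chloride channels, the inward-rectifying Clcn2 had 248, 279 and 208 normalized counts in the WT HFD libraries and 353, 359 and 388 in the WT chow libraries (log2 fold change -0.58 ± 0.17, adjusted p = 0.0769). Ano1, the calcium-activated chloride channel of smooth muscle and airway, had 246, 162 and 183 normalized counts in the WT HFD libraries and 112, 138 and 139.7 in the WT chow libraries (log2 fold change 0.60 ± 0.23, adjusted p = 0.138), and was not called without WT HFD 1, WT chow 1 or WT chow 2 (log2 fold change 0.41 to 0.65). Clcn6, an endosomal exchanger, was lower (log2 fold change -0.28 ± 0.11, adjusted p = 0.16), but the call was lost whichever library was left out (log2 fold change -0.33 to -0.21). Ryr3, a release channel of the internal calcium store, had 39.9, 41.2 and 26.8 normalized counts in the WT HFD libraries and 85.6, 64.5 and 73.1 in the WT chow libraries (log2 fold change -1.04 ± 0.28, adjusted p = 0.065).

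The wider ion transport genes come from lists of genes that are no members, and their counts stand beside 42.4% of all listed genes called higher and 49.2% lower. Of 36 genes for store-operated entry and calcium handling, 13 were listed, 10 called higher and 2 lower. The calcium sensor Stim2 (log2 fold change 0.45 ± 0.15, adjusted p = 0.108) and the mitochondrial uniporter Mcu (log2 fold change 0.60 ± 0.18, adjusted p = 0.0811) were among the higher, and the sodium-calcium exchanger Slc8a2 (log2 fold change -3.32 ± 0.70, adjusted p = 0.0455) was lower. Of 45 other channel genes 18 were listed, 11 higher and 6 lower, with the intracellular chloride channel gene Clic5 (log2 fold change 1.54 ± 0.37, adjusted p = 0.0568) and the epithelial sodium channel subunit Scnn1g (log2 fold change 1.45 ± 0.41, adjusted p = 0.0751) among the higher. Of 14 genes for the sodium pump and the gap junction scaffold, 7 were listed, 5 called higher and 2 lower. The scaffold gene Tjp1, whose product binds connexins at the junction, was higher (log2 fold change 1.34 ± 0.32, adjusted p = 0.0555).

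Markers of several cell types moved with these members. CD31+ cells are enriched for endothelium, but macrophages, lymphocytes and other cells can be carried along. The defining endothelial genes Pecam1 and Cdh5 held 13879.5 ± 6137 and 12993 ± 6800.4 normalized counts in WT chow and 31599.8 ± 7917 and 38781 ± 12375 in WT HFD (SD, n = 3 each). Of 18 endothelial markers, 16 were listed for HFD against chow in WT and 15 called higher, and their summed level was 1136 to 1967 FPKM in the WT HFD libraries and 348 to 953 in the WT chow libraries. Of 14 T and NK cell markers, 7 were listed and all were called higher (131 to 177 against 49.7 to 82.1 FPKM). Of 15 lung epithelial markers, 8 were listed, 4 called higher and 2 lower, and the higher ones were the alveolar genes Ager, Aqp5, Hopx and Rtkn2. The lowest fold changes were those of Epcam (log2 fold change -0.70 ± 0.22), Scgb3a2 and Scgb1a1. The summed level of the 8 was 2303 to 4663 FPKM in WT HFD and 4389 to 5895 in WT chow. Of 13 monocyte and macrophage markers, 4 were listed, 2 higher and 2 lower (193 to 323 against 168 to 251 FPKM), and the 1 neutrophil marker listed of 8 was lower. Of 12 smooth muscle and pericyte markers, 4 were listed, 1 higher and 2 lower, at 2.53 to 2.75 against 2.57 to 3.57 FPKM in sum. Of 13 cardiomyocyte markers, Mybpc3 and Ttn were listed and both were lower (2.57 to 6.06 against 9.04 to 15.6 FPKM), and of 10 neuron and Schwann cell markers 3 were listed, 2 higher and 1 lower. Of 10 fibroblast markers 4 were listed and 3 called higher, of 9 platelet markers 3 were listed and 2 called lower, of 7 mesothelial markers 2 were listed and 1 called lower, and no B cell marker of 7 was listed. No listed marker was at 0 in all its libraries. Fewer cells of a type and less RNA per cell cannot be told apart in bulk RNA, and the part these markers have in the members' values was not tested.

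TET2 KO against WT on HFD asked whether loss of endothelial Tet2 matters under the diet. The sodium channel genes Scn3b and Scn3a and the TRP channel genes Trpm4 and Trpv4 were lower in TET2 KO HFD than in WT HFD. Kcnd1, Kcnk7, Kcnip2 and several genes with few reads, Kcnd3 among them, were higher. Of the 22 members listed, 16 were called (82.3% of all 3939 listed genes were), 9 higher (43.1%) and 7 lower (39.1%). The groups did not overlap in 14 members, beside 74.7% of all listed genes. After rescaling to the listed genes (TMM) the split was 8 higher and 10 lower, beside 1535 higher and 1568 lower of all listed genes. The lowest adjusted p of a member was 0.237 by edgeR, and no listed gene was below 0.05. DESeq2 on the same counts placed 4 members below 0.05 (Cacng7, Kcnd1, Scn3b and Trpm4), among 577 genes. The median log2 fold change was -0.55 over the members and 0.33 over all listed genes.

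Both listed TRP channels were lower. Trpm4 had 932, 726 and 798 normalized counts in the TET2 KO HFD libraries and 1631, 1459.9 and 1149 in the WT HFD libraries (log2 fold change -0.79 ± 0.18, adjusted p = 0.237), and Trpv4 had 479, 372 and 339 in TET2 KO HFD and 684, 574 and 519 in WT HFD (log2 fold change -0.58 ± 0.19, adjusted p = 0.241). Trpv4 was not called without TET2 KO HFD 2, TET2 KO HFD 3 or WT HFD 1 (log2 fold change -0.53 to -0.46). For both genes every TET2 KO HFD library was below every WT HFD library. The sodium channel subunits were all below 0, with Scn3b and Scn3a called. Scn3b had 1188, 723 and 720.5 normalized counts in the TET2 KO HFD libraries and 2278, 2398 and 1272 in the WT HFD libraries (log2 fold change -1.18 ± 0.30, adjusted p = 0.237). Scn3a had 30.2, 18.1 and 28.4 in TET2 KO HFD and 68.1, 56 and 34.1 in WT HFD (log2 fold change -1.05 ± 0.38, adjusted p = 0.25), and was not called without TET2 KO HFD 2, WT HFD 1 or WT HFD 2 (log2 fold change -1.0 to -0.81). Scn7a was not called, and TET2 KO HFD 1 lay within the WT HFD range, with 14109, 4161 and 6923 in TET2 KO HFD and 17446, 18767 and 10385 in WT HFD (log2 fold change -0.89 ± 0.44, adjusted p = 0.385). It was called without TET2 KO HFD 1 or WT HFD 3.

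Among potassium channels, Kcnd1 had 166, 144 and 80.8 normalized counts in the TET2 KO HFD libraries and 54.2, 62.4 and 43.6 in the WT HFD libraries (log2 fold change 1.29 ± 0.33, adjusted p = 0.237), higher in every TET2 KO HFD library. Kcnd3 had 10.1, 12.7 and 14.2 in TET2 KO HFD and 5.13, 3.17 and 5.32 in WT HFD (log2 fold change 1.41 ± 0.47, adjusted p = 0.245), and Kcnk7 had 203, 264 and 188 in TET2 KO HFD and 73.3, 87.7 and 159.6 in WT HFD (log2 fold change 1.04 ± 0.33, adjusted p = 0.239). Kcnd3 was not called without TET2 KO HFD 2 or WT HFD 2 (log2 fold change 1.22 to 1.38), and Kcnk7 not without TET2 KO HFD 2 or WT HFD 2 (log2 fold change 0.87 to 0.91). Kcnip2 had 50.3, 68 and 69.9 in TET2 KO HFD and 31.5, 27.5 and 47.9 in WT HFD (log2 fold change 0.82 ± 0.32, adjusted p = 0.266), and was not called without TET2 KO HFD 2, TET2 KO HFD 3, WT HFD 1 or WT HFD 2 (log2 fold change 0.66 to 0.75). The sodium-activated channel gene Kcnt2 (16.1, 14.9 and 15.3 in TET2 KO HFD and 6.59, 6.34 and 4.26 in WT HFD) and the beta subunit gene Kcnmb3 (28.2, 30.8 and 13.1 in TET2 KO HFD and 3.66, 7.4 and 9.58 in WT HFD) were called higher from under 35 normalized counts in each library. Kcnq1 was lower (log2 fold change -0.75 ± 0.29, adjusted p = 0.263), but not called without TET2 KO HFD 2, TET2 KO HFD 3, WT HFD 1 or WT HFD 2 (log2 fold change -0.76 to -0.58). Kcnh1 (log2 fold change -1.11 ± 0.50, adjusted p = 0.313) was not called, though it was without TET2 KO HFD 1 or WT HFD 3.

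Both listed connexins lay below 0, and their values for the diet in WT, which share the WT HFD libraries, are given beside them. Gjc1 had 422, 237 and 213 normalized counts in the TET2 KO HFD libraries and 815, 465 and 385 in the WT HFD libraries (log2 fold change -0.94 ± 0.36, adjusted p = 0.262), beside a log2 fold change of 1.52 for HFD against chow in WT, and it was not called without TET2 KO HFD 2, TET2 KO HFD 3 or WT HFD 1 (log2 fold change -0.81 to -0.55). Gja5 had 217, 236 and 193 in TET2 KO HFD and 421, 313 and 217 in WT HFD (log2 fold change -0.56 ± 0.26, adjusted p = 0.325), with overlapping groups and no call, beside 1.35 for HFD against chow in WT. It was called without WT HFD 3. Cacng7 was higher in TET2 KO HFD, with 85.5, 22.3 and 6.55 normalized counts in the TET2 KO HFD libraries and 1.47, 4.23 and 2.13 in the WT HFD libraries (log2 fold change 3.86 ± 1.02, adjusted p = 0.237), and without TET2 KO HFD 1 the value was 2.47. Ano7 had 51.3, 30.8 and 13.1 in TET2 KO HFD and 9.52, 9.51 and 8.51 in WT HFD (log2 fold change 1.78 ± 0.54, adjusted p = 0.237). TET2 KO HFD 1 was the highest library for both genes. Cacnb3 was lower with 172, 142 and 159 in TET2 KO HFD and 243, 247 and 201 in WT HFD (log2 fold change -0.55 ± 0.19, adjusted p = 0.247), though not called without TET2 KO HFD 2, WT HFD 1 or WT HFD 2 (log2 fold change -0.51 to -0.48). Ano3 was called on at most 20.1 normalized counts in a library with overlapping groups, and not without TET2 KO HFD 1, TET2 KO HFD 2, WT HFD 2 or WT HFD 3 (log2 fold change 1.26 to 2.25). Cacna2d4 was not called (log2 fold change -0.53 ± 0.23, adjusted p = 0.297), though it was without TET2 KO HFD 3.

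Beside these members, the tables held 14 of the 18 endothelial markers for this comparison, 12 of them called lower, with a summed level of 584 to 1071 FPKM in TET2 KO HFD and 1192 to 2116 in WT HFD. The alveolar markers Ager, Hopx and Rtkn2 were also lower (28.9 to 48.4 against 71.3 to 87.2 FPKM). Of the macrophage markers, 3 complement genes of 13 were listed, with 2 called lower and a summed level of 18.8 to 34.9 FPKM in TET2 KO HFD and 12.4 to 544 in WT HFD, the highest being WT HFD 3. The muscle and heart markers Cnn1 (log2 fold change 2.14 ± 0.66, adjusted p = 0.237) and Mybpc3 (log2 fold change 1.40 ± 0.50, adjusted p = 0.247) and the platelet marker Gp1ba (log2 fold change 0.83 ± 0.30, adjusted p = 0.25) were called higher. Cnn1 was the 1 smooth muscle marker listed of 12 and had at most 10.9 normalized counts in a library. The groups of Mybpc3 overlapped. The neuron marker Stmn2 was called lower, and Prph, Ncr1 and Msln were listed and not called. Their part in the members' values was not tested. Of the calcium handling genes 5 were listed, 1 higher and 3 lower, including Orai3 (log2 fold change -0.46 ± 0.19, adjusted p = 0.28) and Plcb1 (log2 fold change -0.76 ± 0.22, adjusted p = 0.237). Of the other channel genes 9 were listed, 1 higher and 5 lower, including Scnn1g (log2 fold change -1.63 ± 0.43, adjusted p = 0.237) and Clic5 (log2 fold change -0.95 ± 0.31, adjusted p = 0.241). Of the pump and scaffold genes Tjp1 and Fxyd6 were listed and neither was called.

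**Figure D3:**
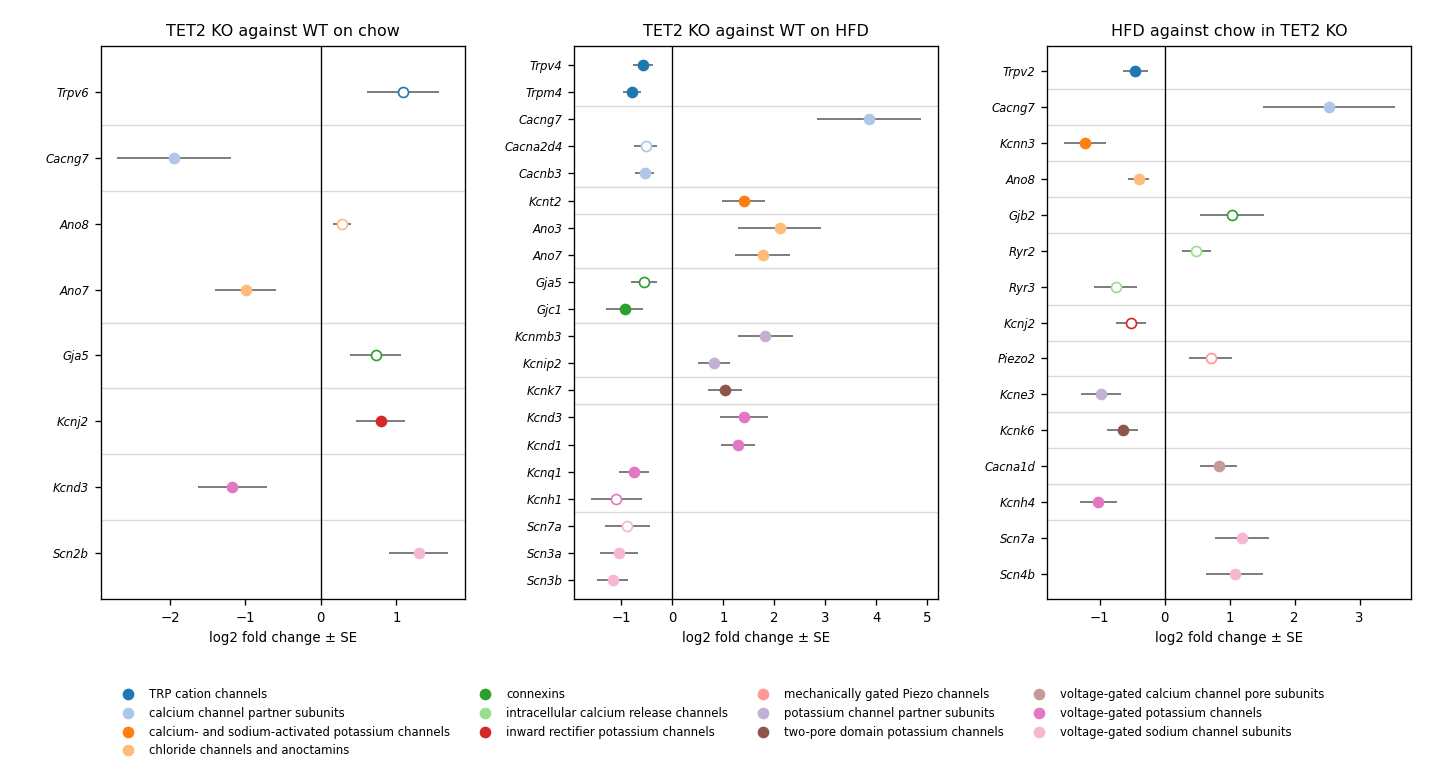
log2 fold change ± SE (x axis) of members in the other comparisons, with 8 members listed in TET2 KO against WT on chow, 22 for TET2 KO against WT on HFD and 15 for HFD against chow in TET2 KO. A few that were not called are not plotted. Colours give the role, filled points were called at an unadjusted p under 0.05 and open points were not. None reached an adjusted p under 0.05 by edgeR, and the x axes differ in range. On HFD, Cacng7 lies farthest to the right and the sodium channel subunits shown all lie left of 0.

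HFD against chow in TET2 KO mice asked for the effect of the diet where endothelial Tet2 is deleted. Kcnn3, Kcnh4, Kcne3 and Kcnk6 were lower on HFD, and Scn7a, Scn4b and Cacna1d were higher. Of the 15 members listed, 10 were called, beside 77% of all 1628 listed genes. Of these, 4 were called higher (29.3% of all listed genes were) and 6 lower (47.7%). The groups did not overlap in 8 members, beside 72.6% of all listed genes. Rescaling to the listed genes (TMM) moved the median of all listed genes by 0.25 and turned the split into 7 higher and 3 lower, although no member changed sign. The calls of all listed genes turned likewise, from 477 higher and 777 lower to 636 higher and 354 lower. The lowest adjusted p of a member was 0.706. By edgeR 1 listed gene, no member, was below an adjusted p of 0.05. DESeq2 gave 70 such genes and no member. It called 14 of the 15 members at an unadjusted p under 0.05, which the listing by the authors' own DESeq2 p had largely set. The median log2 fold change was -0.40 over the members and -0.51 over all listed genes.

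Potassium channels made up most of the lower members. Kcnn3 had 1968, 3719.6 and 1839 normalized counts in the TET2 KO HFD libraries and 6812, 6743 and 4106 in the TET2 KO chow libraries (log2 fold change -1.23 ± 0.32, adjusted p = 0.706), beside a log2 fold change of -1.11 in WT. Kcnh4 had 283, 353 and 229 normalized counts in the TET2 KO HFD libraries and 780.4, 573 and 406 in the TET2 KO chow libraries (log2 fold change -1.02 ± 0.29, adjusted p = 0.706), beside -1.17 in WT. Both genes were lower in every HFD library than in any chow library of their genotype. Kcne3, a partner subunit of Kcnq1 in epithelia, had 43.1, 73.5 and 51.8 normalized counts in the TET2 KO HFD libraries and 125, 124 and 83 in the TET2 KO chow libraries (log2 fold change -0.98 ± 0.31, adjusted p = 0.706). Kcnk6, a two-pore domain channel of vessels and lysosomes, had 704, 1101 and 689 normalized counts in the TET2 KO HFD libraries and 1408, 1403 and 1091 in the TET2 KO chow libraries (log2 fold change -0.65 ± 0.24, adjusted p = 0.718), and was not called without TET2 KO HFD 1, TET2 KO HFD 3, TET2 KO chow 1 or TET2 KO chow 2 (log2 fold change -0.59 to -0.53). Kcnj2, the inward rectifier by which endothelium responds to flow and to external potassium, was not called here, with 328, 498 and 548 in TET2 KO HFD and 668, 696 and 608 in TET2 KO chow (log2 fold change -0.52 ± 0.23, adjusted p = 0.783). Its groups did not overlap, and it was called without TET2 KO HFD 3.

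Among the cation channels, Scn7a had 13420.5, 3998 and 6700.1 normalized counts in the TET2 KO HFD libraries and 2838, 4432 and 3276 in the TET2 KO chow libraries (log2 fold change 1.19 ± 0.41, adjusted p = 0.718), and TET2 KO HFD 2 lay within the chow range. It was not called without TET2 KO HFD 1, TET2 KO chow 1 or TET2 KO chow 3 (log2 fold change 0.61 to 1.15). Scn4b, a beta subunit, had 34.5, 63.3 and 70.8 in TET2 KO HFD and 15.1, 29.1 and 35.4 in TET2 KO chow (log2 fold change 1.08 ± 0.44, adjusted p = 0.732), with overlapping groups, and was not called without TET2 KO HFD 2, TET2 KO HFD 3, TET2 KO chow 1 or TET2 KO chow 2 (log2 fold change 0.80 to 1.15). Cacna1d, a calcium channel pore of pacemaker and endocrine cells, had 226, 293 and 448 in TET2 KO HFD and 159, 167 and 219 in TET2 KO chow (log2 fold change 0.83 ± 0.29, adjusted p = 0.718), and was not called without TET2 KO HFD 3, TET2 KO chow 1 or TET2 KO chow 2 (log2 fold change 0.52 to 0.77). Cacng7 was higher, with 81.3, 21.4 and 6.34 in TET2 KO HFD and 0.944, 6.78 and 11.1 in TET2 KO chow (log2 fold change 2.53 ± 1.01, adjusted p = 0.727), and it was not called without TET2 KO HFD 1, TET2 KO chow 1 or TET2 KO chow 2 (log2 fold change 1.14 to 2.59). These 4 genes were the only members called higher, each resting on part of the libraries. Trpv2, a channel abundant in macrophages, had 2434, 3572 and 3689 normalized counts in the TET2 KO HFD libraries and 4352, 4686 and 4214 in the TET2 KO chow libraries (log2 fold change -0.45 ± 0.19, adjusted p = 0.764), and was not called without TET2 KO HFD 1, TET2 KO chow 1, TET2 KO chow 2 or TET2 KO chow 3 (log2 fold change -0.48 to -0.28). Ano8, which tethers internal membranes, was lower with 1382, 1175 and 1224 in TET2 KO HFD and 1798, 1614 and 1584 in TET2 KO chow (log2 fold change -0.40 ± 0.16, adjusted p = 0.718), and not called without TET2 KO HFD 2, TET2 KO HFD 3, TET2 KO chow 1 or TET2 KO chow 2 (log2 fold change -0.42 to -0.34). Piezo2 (log2 fold change 0.71 ± 0.33, adjusted p = 0.83), Gjb2 (log2 fold change 1.04 ± 0.49, adjusted p = 0.856), Ryr2 (log2 fold change 0.49 ± 0.22, adjusted p = 0.813) and Ryr3 (log2 fold change -0.75 ± 0.33, adjusted p = 0.791) were not called. For Piezo2 the TET2 KO HFD libraries held 2366, 1131 and 1042 normalized counts and the TET2 KO chow libraries 848, 1112 and 810.3, so a single library stood apart. Piezo2 was called without TET2 KO HFD 2 or TET2 KO HFD 3, and Gjb2 without TET2 KO HFD 1 or TET2 KO chow 3. Ryr2 was called without TET2 KO HFD 2, and Ryr3 without TET2 KO HFD 1 or TET2 KO chow 1.

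Macrophage markers moved with the lower members of this comparison. The 4 listed of 13 were all called lower, Marco, Mrc1, Fcgr3 and Lyz2, with a summed level of 2019 to 3436 FPKM in TET2 KO HFD and 4010.3 to 5630 in TET2 KO chow. Of the endothelial markers, Emcn alone was listed, and it was higher. Of 7 mesothelial markers 6 were listed and 5 called higher, and of 10 fibroblast markers 6 were listed, 4 higher and 1 lower. Of the T and NK cell markers 3 were listed and 2 called lower. Mmp8 of the neutrophil and Epcam of the epithelial markers were called lower, and Pdgfrb and Myl4 were not called. Their part in the members' values was not tested. Among the wider transport genes, 7 of 45 other channels were listed, 2 higher and 5 lower, with Mcoln3 (log2 fold change -1.01 ± 0.28, adjusted p = 0.706) and P2rx5 (log2 fold change -0.86 ± 0.24, adjusted p = 0.706) lower and Panx1 (log2 fold change 0.47 ± 0.17, adjusted p = 0.718) higher. Of the calcium handling genes 2 were listed, with Atp2b2 called lower (log2 fold change -0.78 ± 0.33, adjusted p = 0.773), and no pump or scaffold gene was listed.

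TET2 KO against WT on chow asked what loss of endothelial Tet2 does without the diet. The 8 listed members were 3.85% of the genes of the rule, beside 4.12% of all protein-coding genes. Of the 8, 5 were called (76.6% of all 1298 listed genes were), Scn2b and Kcnj2 higher (30.6%) and Cacng7, Kcnd3 and Ano7 lower (46%). The groups did not overlap in 6 members, beside 74.7% of all listed genes. All 8 were called after rescaling to the listed genes (TMM), 5 higher and 3 lower, beside 498 higher and 506 lower of all 1298 listed genes. The lowest adjusted p of a member was 0.792, and no listed gene was below 0.05 by edgeR. DESeq2 called 7 of the 8 at an unadjusted p under 0.05, which the listing by the authors' own DESeq2 p had largely set. After adjustment it called 0 members, beside 12 genes in all.

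Kcnj2 had 672, 691 and 612 normalized counts in the TET2 KO chow libraries and 256, 282 and 601 in the WT chow libraries (log2 fold change 0.79 ± 0.33, adjusted p = 0.91). WT chow 3 lay just under the TET2 KO libraries, and Kcnj2 was not called without TET2 KO chow 1, TET2 KO chow 2, TET2 KO chow 3, WT chow 1 or WT chow 2 (log2 fold change 0.58 to 0.84). Scn2b had 15.2, 27.9 and 22.4 in TET2 KO chow and 7.46, 12 and 7.18 in WT chow (log2 fold change 1.29 ± 0.39, adjusted p = 0.792), and was called whichever library was left out. Kcnd3 had 19, 9.62 and 7.13 in TET2 KO chow and 19.6, 24 and 37.9 in WT chow (log2 fold change -1.17 ± 0.46, adjusted p = 0.895), Ano7 had 22.8, 28.9 and 15.3 in TET2 KO chow and 29.8, 66.5 and 37.9 in WT chow (log2 fold change -0.99 ± 0.40, adjusted p = 0.898), and Cacng7 had 0.949, 6.73 and 11.2 in TET2 KO chow and 9.32, 26.1 and 37.9 in WT chow (log2 fold change -1.95 ± 0.75, adjusted p = 0.889). These 3 genes had under 70 normalized counts in every library. Kcnd3 was not called without TET2 KO chow 2, TET2 KO chow 3, WT chow 2 or WT chow 3 (log2 fold change -1.25 to -0.85), Ano7 not without TET2 KO chow 1, TET2 KO chow 3 or WT chow 2 (log2 fold change -1.01 to -0.60), and Cacng7 not without TET2 KO chow 1, TET2 KO chow 2, WT chow 2 or WT chow 3 (log2 fold change -2.0 to -1.43). Gja5 was not called, with 296, 147 and 157 in TET2 KO chow and 111, 99.1 and 153 in WT chow (log2 fold change 0.73 ± 0.33, adjusted p = 1), where TET2 KO chow 1 stood above the rest. Neither Trpv6, a calcium-selective channel of epithelia (log2 fold change 1.09 ± 0.48, adjusted p = 0.956), nor Ano8 (log2 fold change 0.28 ± 0.12, adjusted p = 0.966) was called. Gja5 was called without TET2 KO chow 2 or WT chow 3, and Trpv6 without TET2 KO chow 1 or WT chow 3. Ano8 was not called whichever library was left out. Beside them, 5 of the 6 listed T and NK cell markers were higher in TET2 KO (94.4 to 144 against 57.8 to 93 FPKM), and the 3 listed airway epithelial markers (2363 to 3104 against 4299 to 5643 FPKM) and 5 listed mesothelial markers were lower. Of 5 listed fibroblast markers, Col3a1, Col1a2, Dcn and Col1a1 were called lower and Npnt higher. Of the endothelial markers Ednrb and Ramp2 were listed, with Ednrb called higher, and single markers of other types were called higher (Stmn2) or lower (Myl4) or were not called (Gp1ba). Their part in the members' values was not tested. Of the wider transport genes, Mcu was listed and called higher, as was Cftr, while Nalcn, Cnga4, Atp1b2 and Fxyd1 were called lower.

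The interaction asked whether the TET2 KO against WT difference depends on the diet, or equally whether the diet's effect depends on genotype. It could be fitted for the 975 genes with counts in all 12 libraries, 10 of them members. A gene has counts in all libraries only if it was listed for both genotype comparisons or for both diet comparisons, which favours genes that moved in both. The interaction was called at an unadjusted p under 0.05 for 4 of the 10 members, beside 56.4% of the 975 genes, and all 4 had an adjusted p under 0.05 over those genes, as did 55.5% of the 975. They were Cacng7, Ano7, Kcnd3 and Gja5, all 4 listed for both genotype comparisons, with opposite signs on chow and on HFD. A gene listed that way had already passed a test of each difference, so its interaction was largely set by the listing, and the values below are a description.

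**Figure D4:**
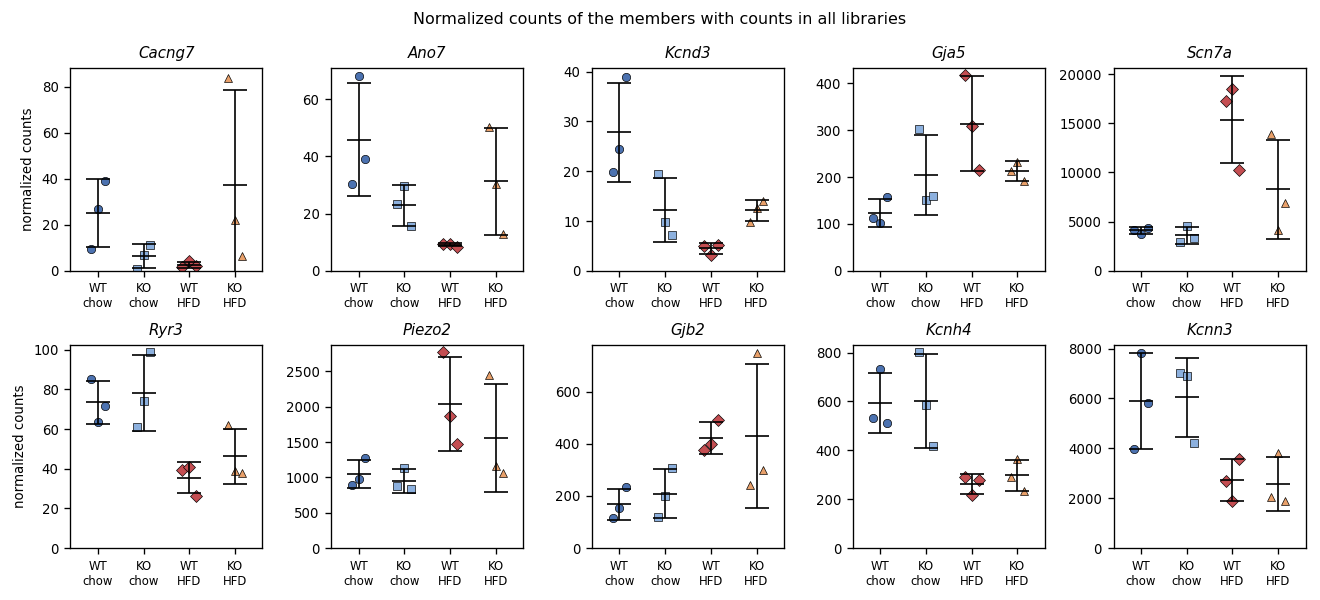
Normalized counts (y axis, from 0, all libraries scaled together) of the 10 members with counts in all 12 libraries, by group on the x axis (KO, TET2 KO). Each point is 1 library, and lines with caps are the mean ± SD of 3 libraries (cut at 0 where they reach below it). In the first 3 panels (Cacng7, Ano7 and Kcnd3) TET2 KO lies lower on chow and higher on HFD, and Gja5 shows the reverse.

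Gja5, at chr3:96904693-97077416, had 113, 102 and 157 normalized counts in WT chow and 303, 151 and 160.3 in TET2 KO chow. On HFD it had 417, 309 and 215 in WT and 214, 233 and 192 in TET2 KO (interaction log2 value -1.29 ± 0.46, adjusted p = 0.0302). The mean was thus higher in TET2 KO on chow and lower on HFD, although neither difference was called alone, and WT chow was the lowest of the 4 groups. Its promoter, printed above, holds 7 CG. Kcnd3 had 19.9, 24.5 and 39 in WT chow, 19.4, 9.9 and 7.29 in TET2 KO chow, 5.08, 3.13 and 5.27 in WT HFD and 9.89, 12.6 and 14.1 in TET2 KO HFD (interaction log2 value 2.57 ± 0.70, adjusted p = 0.0155). WT chow was the highest group and WT HFD the lowest, with both TET2 KO groups between them.

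Ano7 had 30.3, 68.1 and 39 normalized counts in WT chow, 23.3, 29.7 and 15.6 in TET2 KO chow, 9.44, 9.4 and 8.43 in WT HFD and 50.4, 30.4 and 13 in TET2 KO HFD (interaction log2 value 2.76 ± 0.71, adjusted p = 0.0152). Cacng7 had 9.46, 26.8 and 39 in WT chow, 0.971, 6.93 and 11.5 in TET2 KO chow, 1.45, 4.18 and 2.11 in WT HFD and 84.1, 22 and 6.49 in TET2 KO HFD (interaction log2 value 5.80 ± 1.40, adjusted p = 0.0143). In both genes WT HFD had the lowest mean and the libraries most alike, while the TET2 KO HFD libraries ranged over a factor of more than 3. For Cacng7 the libraries also ranged widely in TET2 KO chow (0.971 to 11.5) and WT chow (9.46 to 39), and WT HFD held only 2, 4 and 2 reads. The promoters of Ano7 and Cacng7 hold 4 and 15 CG.

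For the remaining 6 members with counts in all libraries the interaction was not called, though for Scn7a it was in 1 of the 12 fits with a library left out. Its log2 value was -0.71 ± 0.53 for Scn7a, 0.30 ± 0.45 for Ryr3, -0.25 ± 0.47 for Piezo2, -0.29 ± 0.62 for Gjb2, 0.16 ± 0.38 for Kcnh4 and -0.11 ± 0.50 for Kcnn3, with adjusted p from 0.35 to 0.914. The standard errors leave room for differences between the genotypes of a size like the diet effects themselves. For Kcnn3 and Kcnh4 the diet's log2 fold change was -1.11 ± 0.31 and -1.17 ± 0.20 in WT and -1.23 ± 0.32 and -1.02 ± 0.29 in TET2 KO. For Scn7a it was 1.91 ± 0.23 in WT and 1.19 ± 0.41 in TET2 KO.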

How the data were processed

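CD31+ cells were selected from digested mouse lungs with antibody-coated beads, and poly(A) RNA of each of 12 mice was sequenced as paired ends. The authors aligned the reads with HISAT2 (mm10 per the labels), counted them per gene with featureCounts and deposited raw read counts. They also deposited a normalized signal (the count over a DESeq2 size factor), FPKM values, gene lengths and DESeq2 p-values before and after adjustment. Tool versions, the annotation release and the use of strand in counting are not given in the sources used here, so overlapping and antisense genes are not separated with certainty. The authors' fold changes were not used, and their p-values served only to recover how many genes they adjusted (18463, 23768, 18703 and 19511).

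Counts of the genes listed in a table were tested with edgeR 4.0.16 (R 4.3.3) over the 2 groups compared, with library sizes from the deposited size factors. The spread between libraries was estimated from the listed genes alone. These had already passed the authors' threshold, so all standard errors and p-values here draw on a selected set of genes. The interaction used all 12 libraries and adjusted over its 975 genes. On simulated counts for HFD against chow in WT (7330 genes), edgeR recovered 41 of 100 genes changed by a log2 fold of 1 and 92 of 100 changed by 2, with 7 false calls. For the interaction (975 genes) it recovered 13 and 75 of 100, with 6 false calls. Recovery was not tested separately for genes with few reads, so these shares cannot be read for Cacng7, Ano7 or Kcnd3. The reported adjustment for HFD against chow in WT had 23768 tests, more than the 7330 genes of that run. Positions are those of the tables, and 60 of the 62 members had the same position in GENCODE M21 (GRCm38). Genes named are, in each comparison, up to 8 higher and 8 lower called members with the largest change, a higher group averaging 50 or more normalized counts and groups that did not overlap, all with an adjusted p under 0.05, all connexins, Piezo, Ryr and Itpr genes, a list of vascular channels and the members called for the interaction. Others were added after their values were seen. A few genes are counted but not reported by name here. The alternatives were DESeq2 1.42.0, TMM over the listed genes, library totals, a minimum mean of 10 normalized counts, an adjusted threshold, the replicate number as a block, and leaving out each library in turn. Members and lists were chosen with earlier results of these data known. Python 3.11.15 with numpy 2.4.6, pandas 2.3.3 and matplotlib 3.10.9 made summaries and plots.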

Additional observations from a re-analysis of the deposited data

Results flagged for a closer look

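For 4 members the interaction term for a TET2 KO against WT difference that depends on the diet was called (edgeR, adjusted over 975 genes). On the log2 scale the interaction was 5.8 for Cacng7, 2.76 for Ano7, 2.57 for Kcnd3 and -1.29 for Gja5, where a positive value means a higher TET2 KO to WT ratio on HFD than on chow. All 4 had passed the authors' threshold for both genotype comparisons, with opposite signs, so an interaction was largely set by the listing, and 55.5% of the 975 genes had an adjusted p under 0.05. Cacng7, Ano7 and Kcnd3 had few reads, and only Gja5 exceeded 100 normalized counts in any library.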

How the results depend on the processing

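Every named member kept its direction in all 4 pairwise comparisons under each alternative run. At an adjusted p under 0.05, 13 members were called for HFD against chow in WT and 0 in each of the other 3 pairwise comparisons, against 44 in the former and 5 to 16 in the others at an unadjusted p. DESeq2 placed 34 members under that adjusted threshold for HFD against chow in WT and 4 for TET2 KO against WT on HFD, against 13 and 0 by edgeR. Over all 7330 and 3939 listed genes, it placed 4587 and 577 there, against 1368 and 0 by edgeR. TMM over the listed genes called 8 members for TET2 KO against WT on chow, beside 1004 of all 1298 listed genes. Leaving out a library gave 1 (without WT chow 2) to 5 members there, 7 (without TET2 KO HFD 2) to 18 for TET2 KO against WT on HFD, and 4 (without TET2 KO chow 1 or 2) to 10 for HFD against chow in TET2 KO. These were not always the same members. Calls over all listed genes were not counted for these runs, so a shift shared by all listed genes cannot be told apart. Interactions that were not called changed sign when a library was left out, between -0.51 and 0.14 for Kcnn3, -0.049 and 0.42 for Kcnh4, -0.73 and 0.035 for Piezo2, and -0.95 and 0.096 for Gjb2. The cause was not tested. All other counts of calls lay within 1.5 times the reported ones.

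The replicate numbers did not pair the libraries, since the deviations of same-numbered libraries correlated at -0.1 to 0.18 and at most 2 of 6 libraries of a comparison correlated best with their own number. With the replicate block, 5 members were called for the genotype on chow and 17 for the genotype on HFD. For the diet, 40 were called in WT and 11 in TET2 KO, and for the interaction 4. Here too, calls over all listed genes were not counted. Depth limits the members with few reads.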
